A study of Nothobranchius furzeri with 20 samples.

Results

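The genes described here are 150 liver transcripts of the turquoise killifish whose median level was lowest in fish aged 7 weeks, out of 26739 gene identifiers measured at 5, 7, 10 and 14 weeks. They were selected on these same libraries. Counts were scaled to CPM (the reads of a gene per 1000000 reads counted in that library), and log2(CPM + 0.5) was summarised as the median of the 5 fish of each age. A gene had to reach a median of 5 CPM at some age and not be among the 100 most abundant genes, which left 10284 genes. Its medians at 5, 10 and 14 weeks had to lie within 0.8 of each other on the log2 scale, which left 8134 genes. The score is the lowest of these 3 medians minus the 7-week median, and it had to be at least 1, so that the 7-week level was lower by a doubling or more. In all, 205 genes met the rule, and the 150 with the highest scores are the members. Because this choice used the levels at every age, the fall at 7 weeks is a property of the list and is given as a description.

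All 20 fish were males of the GRZ strain of Nothobranchius furzeri, and whole liver was sampled from 5 fish aged 5 weeks, 5 aged 7, 5 aged 10 and 5 aged 14 weeks, with no treatment in the labels. The series addresses how expression in the liver differs between ages. Libraries were made from extracted total RNA, and fish are numbered 1 to 5 within each age only to name them. The labels do not say more about how separate the animals were, so tests measure the spread between these samples, which may in part be technical, and an age cannot be told apart from any shared date of collection or sequencing.

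GRZ is an inbred line with a short life in captivity, used to study growth, maturation and ageing within a brief span. The liver is built mostly of hepatocytes, which make most plasma proteins, handle sugars and lipids and clear hormones and drugs, together with bile duct, vessel, stellate and immune cells. In RNA from a whole organ, fewer cells of a type and less RNA per cell cannot be told apart. The gene identifiers are not paired with names in the sources used here, so the members are described by level, pattern and length, with no function and no check of the tissue by its markers.

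Libraries held 22529235 to 42886761 counts over 19032 to 20524 detected genes. The 20 genes with the highest mean CPM over all fish held 20.6% to 34.2% of a library. In 5-week fish 1 and 2 the median of all 10284 genes past the level filter was 4.26 and 4.10 on the log2 scale, above the 3.69 to 3.85 of the other 5-week fish. At 7 weeks it was 3.98 to 4.13. Among the 40 pairs of fish of the same age, chi-square per degree of freedom was never below 64.8, so no pair looked like the same library counted again.

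Scores of the members ran from 1.09 to 2.71 with a median of 1.38. As a ratio of median CPM with no pseudocount, the lowest of the other 3 ages stood 2.18-fold to 9.69-fold above 7 weeks, with a median of 2.87-fold; on the CPM + 0.5 scale of the score, which understates the change of weak genes, it was 2.13-fold to 6.55-fold. A score of at least 2 was reached by 19 members and a score of at least 1.5 by 54. The cap of 150 set the lower end of the list, not the threshold of 1. The last 2 members scored 1.0902 and 1.0898, and the first 2 genes beyond the cap 1.0871 and 1.0863. The last member had median levels of 8.57, 3.76, 10.1 and 9.42 CPM at 5, 7, 10 and 14 weeks. Around the threshold itself, the smallest scores above it were 1.0040 and 1.0045, and the largest below it were 0.9989 and 0.9979.

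Most members were of modest abundance. Their mean over the 20 fish had a median of 12.9 CPM, beside 15.9 CPM for all genes past the level filter. The range was wide, 3.02 to 1218 CPM, and the 3 most abundant members held 39.4% of the members' reads. At 7 weeks the median was under 5 CPM in 85 members and under 1 CPM in 7. Depth was sufficient to see nearly all of them in every fish: 149 members had no count of 0 in any library.

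**Figure D1:**
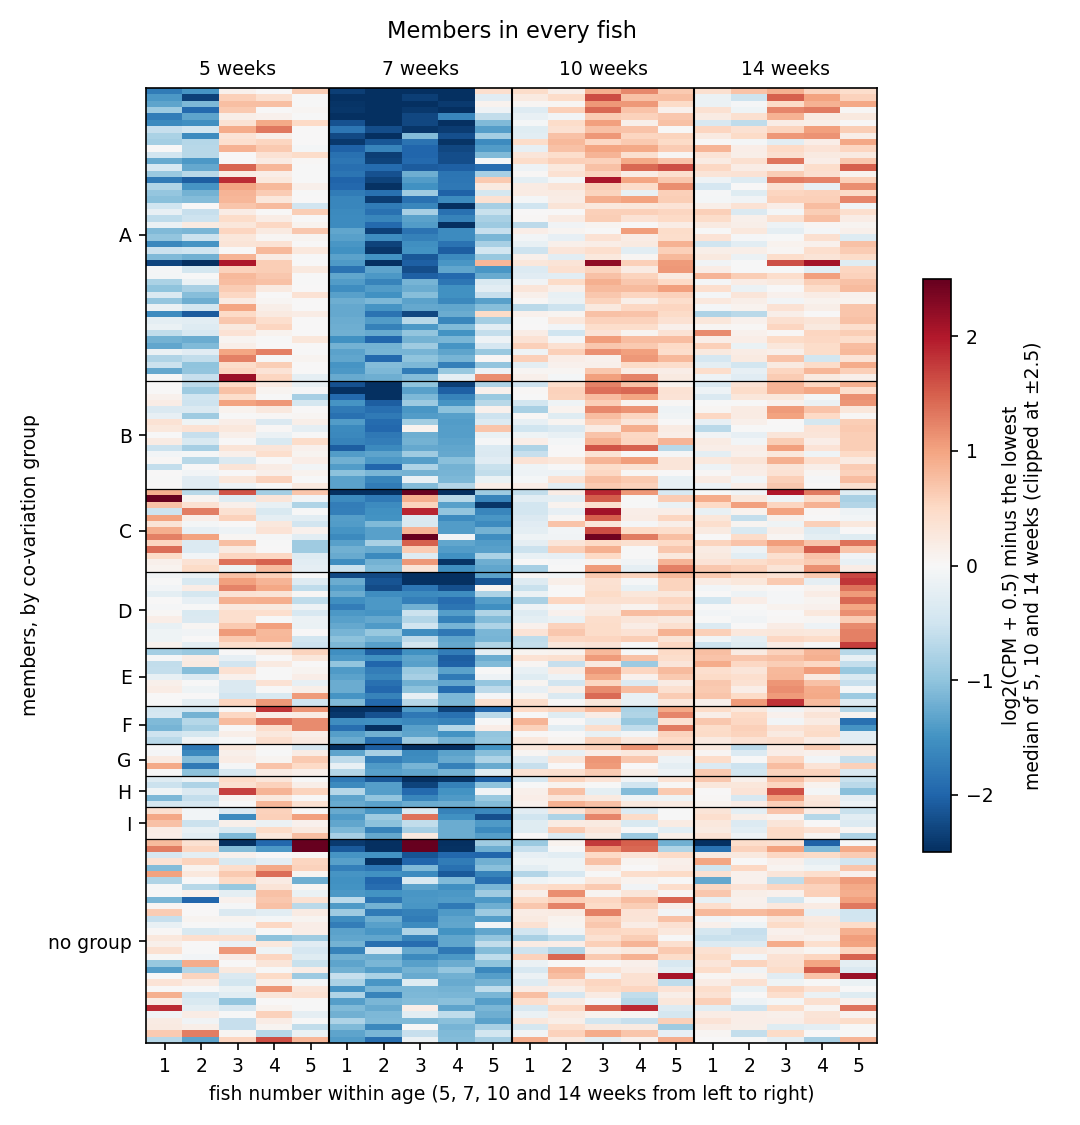
Each row is a member and each column a fish, and the colour gives log2(CPM + 0.5) minus the lowest of the medians at 5, 10 and 14 weeks, with rows ordered by groups of members that moved together between fish of the same age (letters A to I). Blue marks levels below that median. The 7-week columns are blue in most rows, but fish 5 is paler in groups A, B and E. Fish 3 of 7 weeks is red in group C and paler in group I, and 5-week fish 1 and 2 are blue in group A.

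Taken fish by fish, the 7-week livers were not alike. The median of the 150 members was 3.59, 3.35, 4.04, 4.00 and 3.72 on the log2 scale in 5-week fish 1 to 5, and 2.18, 1.91, 2.77, 2.15 and 2.94 in 7-week fish 1 to 5. It was 3.57, 3.95, 4.35, 3.98 and 3.97 at 10 weeks, and 3.84, 3.77, 4.10, 4.05 and 4.06 at 14 weeks. Every 7-week fish lay below all 15 others on this summary, and among the 7-week fish, numbers 3 and 5 lay highest and numbers 1, 2 and 4 close together at the bottom. In CPM, the median member stood at 3.26 to 7.15 in the 7-week fish and at 9.70 to 19.9 in the other 15. The averages of the fish medians were 3.74 ± 0.290, 2.39 ± 0.440, 3.96 ± 0.277 and 3.97 ± 0.148 on the log2 scale at 5, 7, 10 and 14 weeks (SD, n = 5 each).

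The reads of the members as a share of each library did not separate the ages as cleanly. They were 0.435%, 0.352%, 0.581%, 0.556% and 1.002% of counts in 5-week fish 1 to 5, and 0.154%, 0.121%, 0.582%, 0.138% and 0.391% in 7-week fish 1 to 5. At 10 weeks the share was 0.527% to 0.895% and at 14 weeks 0.553% to 0.785%. Here 7-week fish 3 and 5 overlapped the other ages. Without the 3 most abundant members the share was 0.102% to 0.218% in the 7-week fish and 0.231% to 0.544% in the other 15. The closest were 7-week fish 5 and 5-week fish 2, and the share was taken on each library's own total only. The members taken out hold high 7-week levels given below: fish 5 in Nfu_g_1_004519, and fish 3 in Nfu_g_1_013635 and Nfu_g_1_013789. Taking them out removed these departures, so nothing is read from the lack of overlap.

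To place each fish, the midpoint of a gene was set halfway between its 7-week median and the lowest of its other 3 age medians, on the log2 scale. In 7-week fish 1, 2 and 4, 146, 149 and 147 of the 150 members lay below their midpoint. Fish 3 lay below it in 117 members and fish 5 in 90. Among 5-week fish, numbers 1 and 2 lay below the midpoint in 35 and 41 members, and numbers 3, 4 and 5 in 8, 4 and 6. In the 10-week and 14-week fish it was 0 to 8 members. By the rule itself, at least 3 of the 5 7-week fish lie below the midpoint in every member, and at least 3 of the 5 fish of each other age above it. Which fish these are is not fixed by the rule. Fish 1, 2 and 4 of 7 weeks were low nearly throughout the list, fish 3 and 5 in 117 and 90 members, and 5-week fish 1 and 2 in part of it. All 5 of the 7-week fish were below the midpoint in 60 members, and fish 1, 2 and 4 were all below it in 142.

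The departures of 7-week fish 3 and fish 5 fell in different members. Only fish 3 was above the midpoint in 26 members, only fish 5 in 53, both in 7 and neither in 64. In 12 members fish 3 stood above the highest of the other age medians, and in 4 it was the highest of all 20 fish. Fish 5 stood above the highest other median in 5 members.

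**Figure D2:**
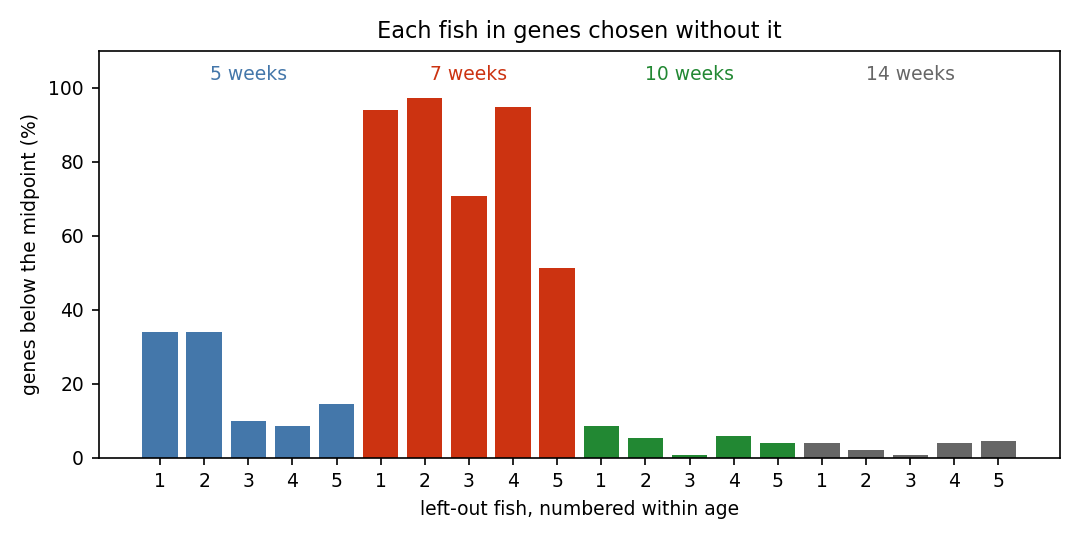
Bars give the percentage of 150 genes in which a fish lay below the midpoint, where the genes and the midpoint were both taken without that fish, for fish 1 to 5 at 5, 7, 10 and 14 weeks. The 7-week fish stand at 51.3% to 97.3%, 5-week fish 1 and 2 at 34% each, and the other 13 fish at 14.7% or less.

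Since a fish helps to choose the genes in which it is then read, each fish was left out once, 150 genes were chosen by the same rule from the other 19, and the left-out fish was read in them. Left-out 7-week fish 1 to 5 lay below the midpoint in 94%, 97.3%, 70.7%, 94.7% and 51.3% of the genes. For left-out 5-week fish 1 to 5 it was 34%, 34%, 10%, 8.67% and 14.7%. The left-out 10-week fish were below it in 0.667% to 8.67% and the 14-week fish in 0.667% to 4.67%. A 7-week fish that took no part in the choice was therefore below the midpoint more often than any fish of another age, and the order within 7 weeks kept fish 3 and fish 5 nearest to the other ages.

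The size of the fall in the left-out fish was read the same way. The median difference from the lowest other age median was −1.36, −1.52, −1.18, −1.43 and −0.80 on the log2 scale in left-out 7-week fish 1 to 5. In 5-week fish 1 and 2 it was −0.53 and −0.54, and in 5-week fish 3 to 5 it was 0.13, 0.30 and −0.21. It was −0.12 to 0.60 at 10 weeks and 0.11 to 0.41 at 14 weeks. The lists made without 1 fish shared 106 to 142 of their 150 genes with the members.

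In 57 of the 150 members all 5 of the 7-week fish lay below all 15 others. The same held for 2.6% of all genes past the level filter (267 of 10284), a comparison the rule itself used, so nothing is read from the gap. In a further 53 members 4 of the 7-week fish did so, in 24 members 3, and in 16 members 2 or fewer. Without 7-week fish 5, the count of members with no overlap was 96, and without fish 3 and 5 together, a setting chosen after seeing the data, it was 119. Leaving out fish can only keep or raise this count. The share over all genes was not computed without these fish, so nothing is read from the rise.

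Among the members with no overlap, Nfu_g_1_020436 had the highest score, 2.31. Its level was 12.7, 12.4, 17.7, 62.0 and 38.9 CPM in 5-week fish 1 to 5, and 2.20, 2.16, 6.31, 3.15 and 4.16 CPM in 7-week fish 1 to 5. At 10 weeks it was 25.28, 26.1, 31.2, 9.96 and 34.4 CPM, and at 14 weeks 24.9, 21.4, 16.5, 19.9 and 10.6 CPM. The gap was narrow at its closest point, between 7-week fish 3 and 10-week fish 4, and wide for most fish.

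The next by score, Nfu_g_1_020334 (score 2.26), was a weak transcript with a wider gap. It stood at 5.59, 5.25, 10.3, 9.25 and 5.99 CPM in 5-week fish 1 to 5 and at 0.85, 0.86, 0.65, 0.35 and 2.08 CPM in 7-week fish 1 to 5. At 10 weeks it stood at 6.10, 5.71, 9.77, 9.11 and 10.9 CPM, and at 14 weeks at 9.68, 8.42, 7.79, 9.76 and 20.0 CPM. Here 7-week fish 5 was the highest of its age yet below every other fish, and 14-week fish 5 was about double its age mates.

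The members that varied least among 5-week fish were Nfu_g_1_009240 and Nfu_g_1_010284. Nfu_g_1_009240 (score 1.13) had 16.6, 15.6, 16.6, 17.9 and 17.5 CPM in 5-week fish 1 to 5, and 7.73, 7.19, 6.96, 7.00 and 10.5 CPM in 7-week fish 1 to 5. Its levels were 14.98, 14.9, 23.6, 16.8 and 16.4 CPM at 10 weeks and 16.6, 18.4, 21.1, 17.1 and 24.7 CPM at 14 weeks. The 4 lower 7-week fish lay close together, fish 5 stood above them, and no 7-week fish reached any fish of another age.

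Nfu_g_1_010284 (score 1.53) was similar at a higher level. It had 52.6, 53.34, 63.9, 63.3 and 48.7 CPM in 5-week fish 1 to 5 and 15.7, 19.3, 22.9, 14.8 and 18.1 CPM in 7-week fish 1 to 5. At 10 weeks it had 48.7, 52.2, 61.4, 56.6 and 70.5 CPM, and at 14 weeks 52.9, 53.0, 56.9, 57.2 and 106 CPM. Neither fish 3 nor fish 5 departed from the 7-week group in this gene, and 14-week fish 5 was far above the rest.

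**Figure D3:**
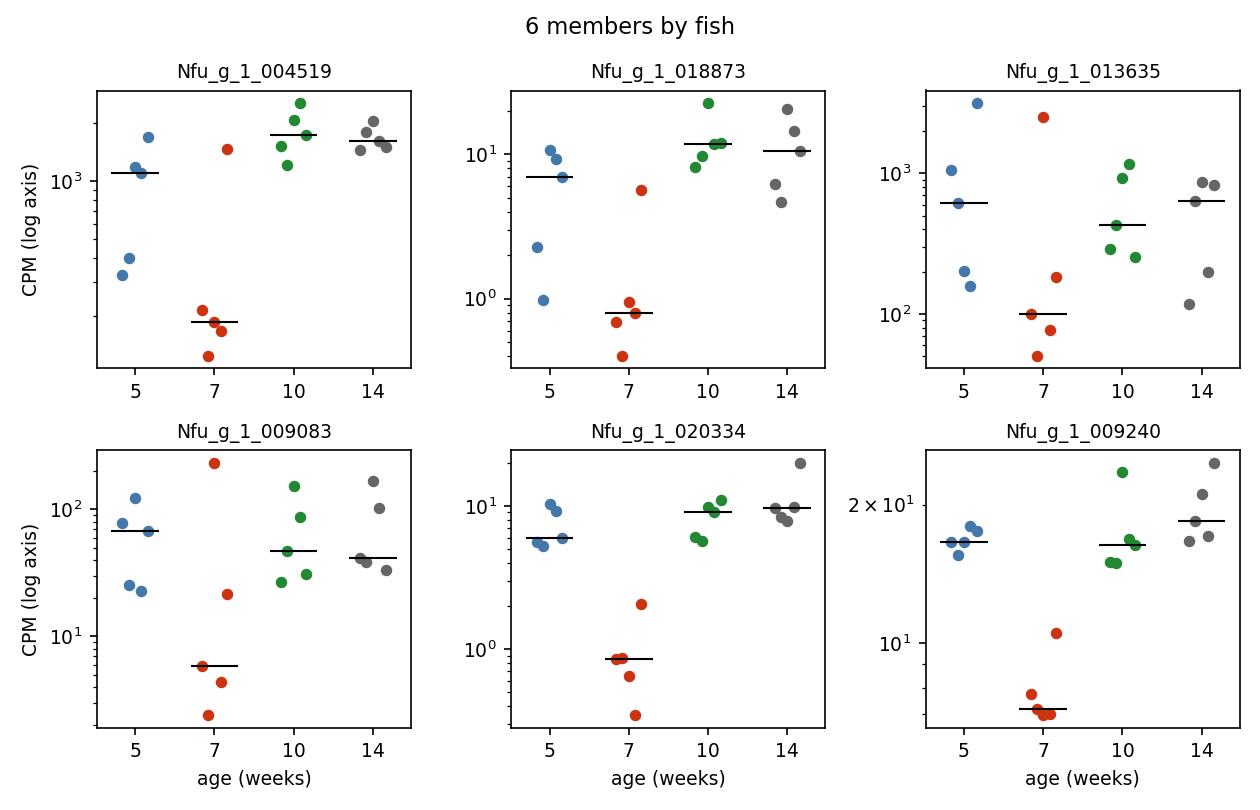
CPM of 6 members in each fish by age, on log axes that differ between panels, with a dot per fish in order of fish number and a line at the median of the age. In Nfu_g_1_020334 and Nfu_g_1_009240 all 7-week dots lie below all others, in Nfu_g_1_004519 and Nfu_g_1_018873 7-week fish 5 lies among the other ages, in Nfu_g_1_013635 7-week fish 3 does, and in Nfu_g_1_009083 7-week fish 3 lies above all others.

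Members were then grouped by how they moved between fish of the same age, which the medians of the rule do not read directly, although the same 20 libraries are behind both. Pearson's r was taken over the 20 fish after subtracting each age's mean, as a description. Over the 11175 pairs of members the median r was 0.27 with quartiles of 0.02 and 0.51, and 25.6% of pairs exceeded 0.5. Over pairs of all genes past the level filter the median was 0.10 and 13.9% exceeded 0.5. In the 150 genes chosen by the mirrored rule, those highest at 7 weeks, the median was 0.74 and 75.2% exceeded 0.5. The count of genes meeting the mirrored rule changed with the 5-week fish included. It was 536 with all fish, and 188, 133 and 217 without 5-week fish 3, 4 and 5 in turn. Without 5-week fish 1 and 2 in turn it was 684 and 690. The r of the 150 genes was not recomputed without these fish. Average linkage with a limit of r = 0.5 gave 9 groups of at least 5 members, lettered by size, which held 118 members and left 32 outside. The groups were formed from the same departures of fish from their age mean that are described below. Counts for a fish inside a group beside those outside it therefore follow from the grouping, and nothing is read from the gap.

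Group A was the largest, with 46 members and a median r of 0.67 among them. Its members were low in 7-week fish 1 to 4, with median differences from the lowest other age median of −1.56, −1.90, −1.52 and −1.75 on the log2 scale. In 7-week fish 5 the difference was −0.59. At 5 weeks it was −0.82 and −0.99 in fish 1 and 2, against 0.54, 0.35 and 0 in fish 3, 4 and 5, so that those 2 younger fish lay lower in these genes than 7-week fish 5 did. The 10-week fish lay at 0.01 to 0.65 and the 14-week fish at 0.09 to 0.54. At least 1 of 5-week fish 1 and 2 was below the midpoint in 31 of the 46 members, beside 21 of the 104 members outside the group. Fish 5 of 7 weeks was above it in 28 of the 46, and both held in 25. These 2 fish also had the highest medians of the 5-week fish over all genes past the level filter, as given above, and the part of that difference in group A was not tested.

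Nfu_g_1_004519, the most abundant member, belongs to group A. Its level was 325, 398, 1190, 1100 and 1690 CPM in 5-week fish 1 to 5, and 214, 124, 186, 166 and 1464 CPM in 7-week fish 1 to 5. It was 1513, 1214, 2078, 2541 and 1731 CPM at 10 weeks, and 1456, 1801, 2042, 1621 and 1500 CPM at 14 weeks. All 7-week fish but fish 5 were low, and 5-week fish 1 and 2 less so, while 7-week fish 5 stood 6.83-fold above the next fish of its age and among the older fish. Its score was 2.56, the third highest, and it was linked at r over 0.5 with 67 other members.

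The most connected members were Nfu_g_1_018873 and Nfu_g_1_019742, each linked with 79 others. Nfu_g_1_018873 (score 2.52) had 2.26, 0.98, 10.8, 9.25 and 6.93 CPM in 5-week fish 1 to 5 and 0.69, 0.40, 0.95, 0.80 and 5.62 CPM in 7-week fish 1 to 5. Its levels were 8.13, 9.66, 22.6, 11.8 and 12.0 CPM at 10 weeks and 6.23, 4.69, 20.4, 14.47 and 10.6 CPM at 14 weeks. It followed the most abundant member: 5-week fish 1 and 2 were near the 7-week level, and 7-week fish 5 lay within the range of the 5-week and 14-week fish but below every 10-week fish.

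Nfu_g_1_019742 (score 2.27) was the only member with a count of 0. It had 0.93, 0.98, 5.02, 7.78 and 5.54 CPM in 5-week fish 1 to 5, and 0.45, 0.22, 0.39, 0.00 and 1.49 CPM in 7-week fish 1 to 5. Its levels were 3.64, 5.43, 8.30, 4.19 and 6.66 CPM at 10 weeks and 2.77, 2.27, 4.40, 4.27 and 3.803 CPM at 14 weeks. At 7 weeks these levels stand for 0 to 38 reads, and the count of 0 in fish 4 allows up to 3 reads, or 0.104 CPM. Fish 1 and 2 of 5 weeks again lay near the 7-week fish, below fish 5.

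In Nfu_g_1_021401 (score 1.45, group A) 5-week fish 2 was the lowest fish of all. The gene had 2.09, 0.65, 51.2, 18.9 and 12.2 CPM in 5-week fish 1 to 5 and 4.27, 1.56, 2.58, 4.16 and 22.1 CPM in 7-week fish 1 to 5. It had 14.9, 15.5, 58.9, 18.8 and 26.2 CPM at 10 weeks, and 11.5, 12.2, 38.3, 53.1 and 9.80 CPM at 14 weeks. The 5-week and 7-week fish overlapped over most of their range, and the score was 0.30 without 5-week fish 3 or fish 4 and 0.60 without 5-week fish 5.

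Group B, with 17 members and a median r of 0.70, shared the departure of 7-week fish 5 but not that of the younger fish. Its median differences at 7 weeks were −1.60, −1.78, −1.13, −1.35 and −0.34 on the log2 scale in fish 1 to 5. At 5 weeks fish 2 stood at −0.38 and the others at 0 to 0.18. Fish 5 was above the midpoint in 15 of the 17 members. Outside groups A and B it was above it in 17 of 87. The departure was not particular to A and B: in group E, of 9 members, 7-week fish 5 was below the midpoint in only 4. Nfu_g_1_009240, given above, is a member of this group in which fish 5 was raised but still apart from the other ages.

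Group C, with 13 members and a median r of 0.61, held the departure of 7-week fish 3. The median differences were −1.47, −1.36, 0.85, −1.39 and −1.39 in 7-week fish 1 to 5, so fish 5 was as low as fish 1, 2 and 4 and fish 3 was not low. Higher levels were also seen in 10-week fish 3, at 1.06, and 5-week fish 1, at 0.72. In CPM, 7-week fish 3 exceeded the highest of the other age medians in 8 of the 13 members and lay below the lowest of them in 3. Fish 3 of 7 weeks was above the midpoint in all 13 members, beside 20 of the 137 members outside the group. In group I, of 5 members, it was above it in 4.

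The highest score of all, 2.71, belonged to a member of group C, Nfu_g_1_009083. Its level was 78.1, 25.2, 124, 22.6 and 67.0 CPM in 5-week fish 1 to 5, and 5.86, 2.398, 233, 4.40 and 21.7 CPM in 7-week fish 1 to 5. It was 26.7, 46.7, 153, 87.2 and 31.0 CPM at 10 weeks, and 41.1, 38.6, 166, 102 and 33.4 CPM at 14 weeks. Fish 3 of 7 weeks was the highest of all 20, fish 5 was near the lower 5-week fish, and the remaining 3 were the lowest. By the mean the gap at 7 weeks nearly closed: 63.3 ± 41.8, 53.5 ± 100.7, 69.0 ± 52.9 and 76.2 ± 57.4 CPM at 5, 7, 10 and 14 weeks (SD, n = 5 each).

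**Figure D4:**
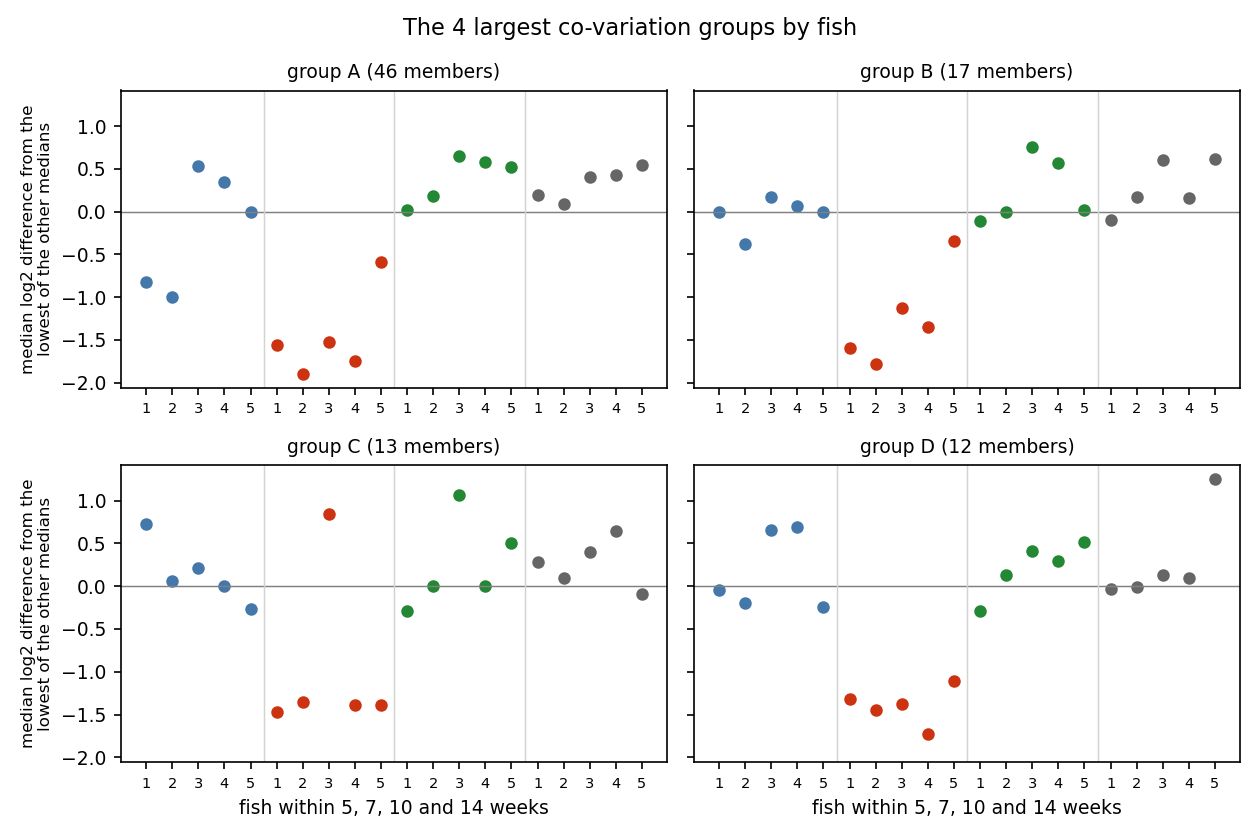
For the 4 largest groups of members that moved together, each dot is the median over the group's members, in 1 fish, of log2(CPM + 0.5) minus the lowest median of 5, 10 and 14 weeks; fish run 1 to 5 within 5, 7, 10 and 14 weeks from left to right. In group A 5-week fish 1 and 2 stand at −0.82 and −0.99 and 7-week fish 5 at −0.59, in group B 7-week fish 5 stands at −0.34, in group C 7-week fish 3 stands at 0.85, and in group D all 7-week fish stand at −1.11 or below.

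A pair of abundant members outside the groups also departed in 7-week fish 3. Nfu_g_1_013635, the second most abundant member (score 2.09), had 1047, 620, 203, 158 and 3156 CPM in 5-week fish 1 to 5 and 100.2, 50.6, 2534, 76.5 and 183 CPM in 7-week fish 1 to 5. It had 288, 429, 932, 1162 and 255 CPM at 10 weeks, and 119, 640, 864, 199.8 and 827 CPM at 14 weeks. Levels differed widely at every age, and fish 3 of 7 weeks was second only to 5-week fish 5.

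Nfu_g_1_013789 (score 2.39), which varied most among the 5-week fish, had 262, 196, 24.6, 38.0 and 1678 CPM in 5-week fish 1 to 5. At 7 weeks it had 28.4, 12.7, 1371, 23.315 and 81.1 CPM. At 10 weeks it had 79.0, 159, 503, 427 and 64.7 CPM, and at 14 weeks 24.2, 205, 198, 36.7 and 150.4 CPM. All ages overlapped, and its score was 1.37 without 14-week fish 2 or fish 3 and 1.57 without 14-week fish 5. Fish high in Nfu_g_1_013635 were high in this gene. Their r after removal of age means was 0.98, the highest of any pair of members, and their rows are adjacent in the deposited table. Whether the order of rows follows the genome is not stated, and reads shared between near-identical copies cannot be told apart from levels that move together.

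In group D, with 12 members and a median r of 0.71, no 7-week fish departed in the median over members. By member, 7-week fish 3 was below the midpoint in 9 of the 12 and 7-week fish 5 in 10. Median differences were −1.31, −1.44, −1.38, −1.73 and −1.11 in 7-week fish 1 to 5. No overlap between the 7-week and the other fish was found in 10 of the 12 members, beside 57 of all 150 members and 2.6% of all genes past the level filter. The 5-week fish 3 and 4 stood higher, at 0.66 and 0.70, and 14-week fish 5 stood at 1.26 beside −0.04 to 0.13 in its age mates. Nfu_g_1_020334 and Nfu_g_1_010284, given above, are of this group, and both were highest in 14-week fish 5.

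Smaller groups differed in other fish. In group E (9 members) 7-week fish 5 stood at −0.23 and 14-week fish 5 at −0.57. In group F (6 members) 5-week fish 1 and 2 stood at −0.60 each, 10-week fish 4 at −0.69 and 14-week fish 5 at −0.49. In group H (5 members) 5-week fish 1 and 2 stood at −0.43 and −0.42 and 14-week fish 5 at −0.56. Group G (5 members) was low in 5-week fish 2, at −1.62, which was below the midpoint in all 5 members.

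The member with the second highest score, Nfu_g_1_005381 (2.58), belongs to group G. It had 11.2, 2.87, 13.6, 11.4 and 8.28 CPM in 5-week fish 1 to 5, and 1.06, 2.32, 1.11, 1.46 and 3.65 CPM in 7-week fish 1 to 5. It had 13.6, 16.03, 17.1, 24.4 and 18.0 CPM at 10 weeks and 13.3, 6.89, 13.2, 17.4 and 13.8 CPM at 14 weeks. Only 5-week fish 2 overlapped the 7-week fish, and it lay below 7-week fish 5.

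The 32 members outside the groups had a median r of 0.06 with each other. They held 16 of the 57 members with no overlap, while group A held 14, group D 10 and group C 1. The groups were formed from the same departures of fish that decide overlap, so nothing is read from these differences.

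The spread between fish of the same age was read as the SD of log2(CPM + 0.5) over 5 fish. Its median over the members was 0.570, 0.543, 0.412 and 0.429 at 5, 7, 10 and 14 weeks. With TMM-scaled library sizes the 5-week value was 0.699. Over all genes past the level filter it was 0.457, 0.269, 0.346 and 0.372. In the 150 genes highest at 7 weeks it was 1.07, 0.342, 0.375 and 0.497. Members thus varied more at 7 weeks than at 10 or 14 weeks, though without 7-week fish 5 the 7-week median was 0.385, below both, whereas all genes varied least at 7 weeks and the genes of the opposite pattern varied most at 5 weeks. At 7 weeks an SD over 0.5 was found in 55.33% of the members and 16.3% of all genes. Over 7-week fish 1, 2 and 4 alone the median SD was 0.283 in the members and 0.213 in all genes. The rule read medians of the same fish, so the spread is not independent of the choice, and no test was made.

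**Figure D5:**
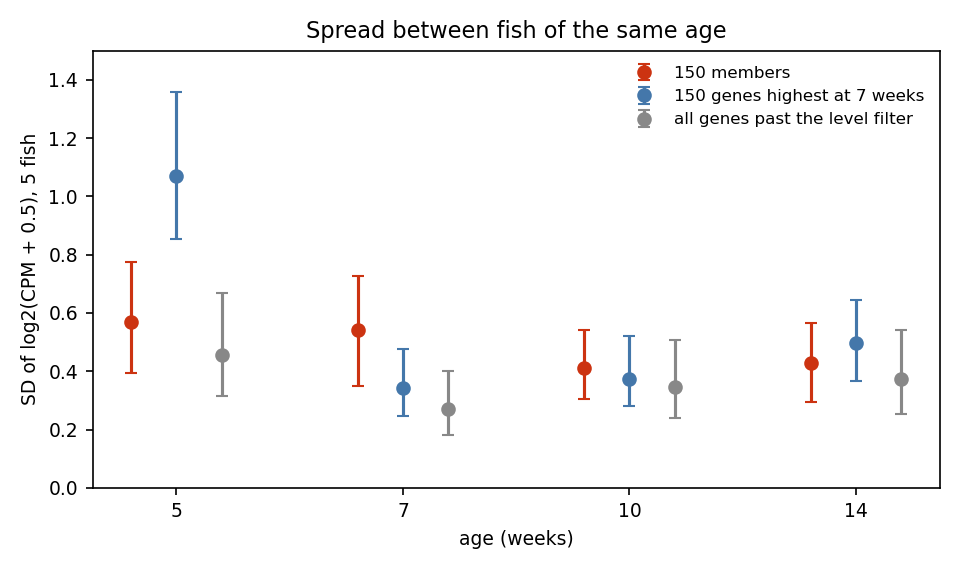
Points give the median over genes, and bars the quartiles, of the SD of log2(CPM + 0.5) between the 5 fish of an age, for the 150 members, the 150 genes highest at 7 weeks and all genes past the level filter. At 7 weeks the members stand at 0.543 and all genes at 0.269; at 5 weeks the genes highest at 7 weeks stand at 1.07.

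The rule did not order the other ages beyond keeping their medians within 0.8. Of the 3 other ages, the lowest median was at 5 weeks in 95 members (63.3%), at 10 weeks in 25 (16.7%) and at 14 weeks in 30 (20%). In all 8134 genes that passed the level and range limits the shares were 33.0%, 26.5% and 40.4%. The highest median was at 5 weeks in 21 members (14%), at 10 weeks in 75 (50%) and at 14 weeks in 54 (36%), beside 40.1%, 37.4% and 22.5% of the 8134 genes. The members therefore stood, more often than not, somewhat lower at 5 than at 10 or 14 weeks. Fish 1 and 2 of 5 weeks lie in that age, and at least 1 of them was below the midpoint in 52 members.

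A fit across all genes used edgeR's quasi-likelihood test on the counts, with 1 mean per age over the 20 libraries and a call at a Benjamini-Hochberg adjusted p under 0.05. The comparisons share the 7-week fish and were used by the rule, so nothing is read from the members' counts. At 7 against 5 weeks, 112 of the 150 members were called lower, where 11.5% of the 16475 tested genes were. At 10 against 7 weeks, 129 were called higher, where 11.9% of tested genes were. At 14 against 7 weeks, 129 were called higher, where 14.2% of tested genes were. The fitted log2 fold changes had medians of −1.40 for 7 against 5 weeks, 1.59 for 10 against 7 weeks and 1.60 for 14 against 7 weeks in the members, and of −0.09, 0.03 and 0.03 in all tested genes. None was called in the opposite direction in these 3 comparisons, 108 members were called in all 3 and 16 in none.

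The members not called included many of group C. The test compares fitted means, whereas the rule compared medians. The groups were formed from departures of fish that also enter these means and their spread. Nothing is therefore read from the counts by group. At 10 against 7 weeks 21 members were not called, of which 8 were among the 13 of group C, 4 were among the 46 of group A and 2 were outside the groups. At 7 against 5 weeks 38 of the 150 members were not called, with 13 among the 46 of group A and 10 among the 13 of group C. In 16 of the 38 at least 1 of 5-week fish 1 and 2 lay below the midpoint, beside 52 of all 150 members, so nothing is read from the 16. The mean CPM at 7 weeks was the lowest of the 4 ages in 147 members. In the other 3, 7-week fish 3 was above the midpoint. A gene not called is not shown to be level between the ages.

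The named members show the range of the fits. Nfu_g_1_020334 had a log2 fold change of −2.97 ± 0.42 (SE) at 7 against 5 weeks, 3.11 ± 0.42 at 10 against 7 weeks and 3.55 ± 0.43 at 14 against 7 weeks. Nfu_g_1_020436 had −3.08 ± 0.49, 2.87 ± 0.49 and 2.42 ± 0.48 in the same comparisons. Both were called in all 3. Nfu_g_1_004519 had −1.20 ± 0.60, 2.06 ± 0.61 and 1.97 ± 0.61 and was called in the last 2 only. Nfu_g_1_013789 had −0.61 ± 1.16, −0.29 ± 1.16 and −1.25 ± 1.18, and was called in none, with fitted values below 0 at 10 and 14 against 7 weeks. Nfu_g_1_009083, with the highest score of all, had −0.36 ± 0.92, 0.37 ± 0.92 and 0.59 ± 0.93 and was called in none. Neither Nfu_g_1_013635 nor Nfu_g_1_021401 was called in any of the 3. Each of the other named members was called at 10 and at 14 against 7 weeks. Over all members the fitted changes ran from −3.45 to 0.28, −0.29 to 3.90 and −1.25 to 3.61.

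Gene length, as implied by the counts and the deposited RPKM, had a median of 3519 bases in the members, with quartiles of 2033 and 5380, and could be read for 149 of them. All genes past the level filter had a median of 3084 bases with quartiles of 1587 and 5226. The genes highest at 7 weeks had a median of 3022.5 bases. The members' distribution thus lay slightly higher and overlapped the others nearly throughout. By group, the median was 3279 bases in A, 4631 in B, 2040 in C, 2079 in D and 7177 in E.

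Some members were neighbours in the deposited table. Adjacent rows held 5 pairs of members, with r after removal of age means of 0.46 to 0.98, over 0.5 in 4 of them. The 10284 genes past the level filter held 4800 pairs in adjacent rows, with a median r of 0.21, and 23.8% of these pairs exceeded 0.5. Identifier numbers 1 or 2 apart linked 8 pairs of members, with r of −0.33 to 0.62, over 0.5 in 1 pair. How many pairs a list of this size would hold by its size alone was not computed, so neither count is read as few or many. The pair Nfu_g_1_018485 and Nfu_g_1_018486, with r of 0.62, is in both sets. The row set also holds the pair that may share reads. For nearness in identifier numbers r was not computed over all genes, so the sets are not compared.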

How the data were processed

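RNA-seq of 20 male GRZ killifish livers was used, 5 per age, grouped by the age in the labels. The authors deposited unnormalized gene counts. Per the submitters' processing notes the upstream tools were CASAVA (1.8.2), STAR (2.4.1d) and the read counter featureCounts (1.4.6-p4). The sources used here do not give the genome build, the annotation or how reads were counted. The TruSeq RNA v2 kit named in the labels' protocols does not mark strand, so overlapping and antisense genes cannot be separated. Near-identical copies cannot be separated here either, since how reads matching both were counted is not given. The authors also deposited an RPKM table, whose values divide counts by a gene length and by totals that cycle from cell to cell and not by each library's own total; it served for gene lengths (14838 genes, residual SD 0.000144 on the log2 scale) and 1 alternative test.

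CPM used column totals and log2(CPM + 0.5). The members, lists and tests were chosen with earlier results of these data known. Counts were fitted in R 4.3.3 with edgeR 4.0.16 (filterByExpr, TMM, quasi-likelihood F-test, Benjamini-Hochberg over 16475 genes), with 1 mean per age. This fit and the selection rule were run on simulated data in which each gene varied independently of the others. Many members moved together between fish, so those runs checked the code and not the results given here. Standard errors of the fitted log2 fold changes were worked back from the test, as the absolute change divided by the square root of F. Alternatives used limma 3.58.1, DESeq2 1.42.0, other pseudocounts, limits and scalings, and leaving out each fish. Identifiers matched no gene names, so the planned marker genes could not be looked up, and the text names 12 identifiers, at most 2 in each class: largest score, highest mean CPM, largest score with no overlap, largest and smallest SD at 5 weeks, and most linked members. Genes beside the threshold are given by score. The limit given for a count of 0 covers counting error only, whereas SDs and standard errors include the spread between fish.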

Additional observations from a re-analysis of the deposited data

Results flagged for a closer look

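Within each age, the 12 named members, the fish medians and the members' share of counts were searched for a fish set apart from its 4 age mates. The gap had to be a large part of the whole range, with 0.71 as the critical value for 5 fish. Levels were read as log2(CPM + 0.5) and the share of counts as a percentage. Of 56 sets of 5 fish, 7 passed. Chance alone passes about 1 in 20 independent sets, but these genes move together and some were named for their extreme values, so the number that passed is not read against that rate. At 7 weeks it was fish 5 each time: in Nfu_g_1_004519 (1464 CPM, next fish 214, gap 0.779 of the range), in Nfu_g_1_018873 (5.62 CPM, next fish 0.948, gap 0.754) and in Nfu_g_1_009240 (10.5 CPM, next fish 7.73, gap 0.746). The same gene stood apart in 10-week fish 3 (23.6 CPM, next fish 16.8, gap 0.739). At 14 weeks it was fish 5, in Nfu_g_1_010284 (106 CPM, next fish 57.2, gap 0.887) and Nfu_g_1_020334 (20.0 CPM, next fish 9.76, gap 0.765). In Nfu_g_1_020436 it was the low 10-week fish 4 (9.96 CPM, next fish 25.28, gap 0.748). The departures of 7-week fish 3 in Nfu_g_1_009083, Nfu_g_1_013635 and Nfu_g_1_013789 did not pass, since the other 7-week fish were also spread out.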

How the results depend on the processing

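Leaving the range of the other 3 ages unlimited gave 328 genes in place of 205, and a range under 0.5 gave 123. Of the 150 members, all 150 met the first of these and 89 the second. Lifting a limit cannot drop a member, so the first of these counts was fixed beforehand. Other pseudocounts, scalings, level limits and the mean in place of the median gave 144 to 257 genes. From 110 to 150 of the members still met the rule in these settings, with 110 for the mean and 129 for DESeq2 size factors. The 150 came from loosened limits, which cannot drop a member either. Leaving out 1 fish gave 160 to 257 genes, and 110 to 148 of the members still met the rule. Members with no overlap numbered 57 to 96 when 1 fish was left out, with 96 without 7-week fish 5, and 119 without 7-week fish 3 and 5 together. Leaving out fish can only keep or raise this count, and the matching share over all genes was not computed. Members called at 7 against 5 weeks numbered 57 with the deposited RPKM in limma, whose totals are not those of the libraries, and 86 with only the 10 libraries of these ages, beside 112; DESeq2 gave 125. Without 1 fish they numbered 91 to 125. At 10 and 14 against 7 weeks the count stayed between 118 and 144 under all alternatives run. The share of all tested genes called under each alternative is not given here, so nothing is read from these shifts in the members called. The genes highest at 7 weeks, 536 by the mirrored rule, numbered 133 to 690 without 1 fish, being 188, 133 and 217 without 5-week fish 3, 4 and 5. All 276 alternative scores of the named members kept their sign. These members were chosen for scores of at least 1 in these same fish, so a change of sign was unlikely beforehand. The score of Nfu_g_1_021401 fell below 1, to 0.30 without 5-week fish 3 or fish 4 and 0.60 without 5-week fish 5. No paired analysis was possible because fish were numbered within ages in the order of listing and the labels share no replicate numbers between ages. Depth limited few members: 1 had a lowest 7-week count under 10.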
